A study of Mus musculus with 8 samples.

Results

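Ccr6, a chemokine receptor, and Ccl20, its ligand, were followed as 2 of the 31053 gene rows of 8 UMI tables from single-cell libraries of mouse colonic lamina propria, across T cells, B cells and innate lymphoid cells. The rows were chosen by name and not by a rule on their values, though earlier results of these data were known. The mice were C57BL/6 animals of 10 to 12 weeks, either wildtype or carrying RORgtS182A, an allele with a serine-to-alanine substitution (S182A) that sample titles call S203AKI. Mice of each genotype drank plain water for 10 days (untreated) or, to damage the lining of the colon, 2% dextran sulfate sodium (DSS) for 7 days and then water for another 3 days, and all colons were taken on day 10. This gave 4 groups (wildtype untreated, mutant untreated, wildtype DSS and mutant DSS) of 2 libraries each. Cells were prepared with a CD4+ T cell enrichment, so the B cells, innate lymphoid cells and other cells seen are those that the enrichment left. The substitution changes 1 residue, which UMI counts per gene do not read, so no gene count checks the genotype labels.

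CCR6 is a G protein-coupled receptor that draws lymphocytes to sites where CCL20 is made. It is carried by type 17 helper T cells, many regulatory T cells, B cells and the lymphoid tissue inducer subset of group 3 innate lymphoid cells (ILC3), and it is known for placing lymphocytes in isolated lymphoid follicles and Peyer's patches. CCL20 is made by gut epithelium, above all over lymphoid follicles and during inflammation, and also by type 17 helper T cells themselves.

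In the reference annotation (GENCODE M21, GRCm38) Ccr6 (ENSMUSG00000040899) spans chr17:8236043-8257141 on the plus strand, with 9 transcripts of up to 6 exons. Ccl20 (ENSMUSG00000026166) spans chr1:83116766-83119167 on the plus strand, with 3 transcripts of up to 4 exons. No other annotated gene overlaps either of them, so their UMIs are not shared with an antisense or nested neighbour. The windows from 250 bases before to 50 bases after each RefSeq transcription start (GRCm38.p6, plus strand) are printed because nuclear receptors and the inflammatory factor NF-kB act at promoters of this kind; 1 start is held for Ccl20 (chr1:83116516-83116815) and 2 for Ccr6 (chr17:8235793-8236092 and chr17:8242276-8242575). Capitals mark matches to the nuclear receptor element AGGTCA or to the NF-kB motif (GGG and TTCC with any 3 bases between them), on either strand.
Ccl20: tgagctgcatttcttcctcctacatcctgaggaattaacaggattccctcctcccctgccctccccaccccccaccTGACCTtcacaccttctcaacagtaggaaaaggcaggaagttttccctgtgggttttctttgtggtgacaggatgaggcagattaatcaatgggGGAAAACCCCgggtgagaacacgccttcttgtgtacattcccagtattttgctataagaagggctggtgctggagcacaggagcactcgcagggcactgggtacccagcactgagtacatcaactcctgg
Ccr6 first start: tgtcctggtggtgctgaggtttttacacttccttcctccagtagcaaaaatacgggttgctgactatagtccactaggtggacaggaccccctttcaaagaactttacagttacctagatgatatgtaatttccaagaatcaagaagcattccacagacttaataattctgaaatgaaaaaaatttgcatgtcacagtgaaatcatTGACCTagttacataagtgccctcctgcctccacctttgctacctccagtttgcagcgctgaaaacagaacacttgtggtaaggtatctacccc
Ccr6 second start: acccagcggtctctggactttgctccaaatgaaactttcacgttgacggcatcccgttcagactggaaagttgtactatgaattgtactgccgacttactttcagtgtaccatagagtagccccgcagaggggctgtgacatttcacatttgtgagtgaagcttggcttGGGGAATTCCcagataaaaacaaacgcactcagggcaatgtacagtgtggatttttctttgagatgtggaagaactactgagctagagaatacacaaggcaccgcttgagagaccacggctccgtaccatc
The Ccl20 window held 1 AGGTCA, read on the minus strand and lying 174 bases before the start, and 1 NF-kB match, also on the minus strand, 80 bases before the start. At the first Ccr6 start the AGGTCA match lay on the minus strand 44 bases before the start, and at the second the NF-kB match lay on the plus strand 81 bases before it. These short motifs are common: 16.3% of 32851 mouse promoter windows of the same length held AGGTCA and 5.56% held the NF-kB motif. None of the 3 windows held the AP-1 motif TGANTCA (present in 7.81% of all windows) or the heat-shock element core GAANNTTC (7.86%). A match is a description of letters and not a measured binding site.

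The tables held 100673 cell barcodes, of which 96721 passed the filters, with 34497509 to 46960005 UMIs per library. Clustering gave 59295 T cell barcodes, 4057 B cell barcodes and 1244 innate lymphoid barcodes (1033 ILC3-like and 211 ILC2-like), named from marker genes; the classes "Th17-like" (8120 barcodes), "Treg-like" (11253) and others divide the T cells, and neither Ccr6 nor Ccl20 was used to form them. Some barcode sequences, 1088 of 95624, occurred in more than 1 library. Genes of the heat-shock response took a larger share of T cell UMIs in the mutant untreated libraries (1.74% and 1.69%) than in the other 6 (0.58% to 0.91%). Levels are given as counts per 1000000 UMIs of a class in a library (CPM) and as the share of barcodes with at least 1 UMI after each barcode was thinned to 1000 UMIs. The labels do not say whether the 2 libraries of a group are independent cohorts. The p-values of comparisons between groups therefore measure the spread between these libraries. In the comparisons of T cells with and without a UMI, the fit took the spread from all genes together. The p-values there do not measure a gene's own spread between libraries.

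Ccr6 was at its highest level in ILC3-like cells, followed by B cells and then by Treg-like and Th17-like cells, and was nearly absent from naive T cells and from fibroblast-like and macrophage or monocyte-like cells (at most 1.57 CPM in any library). Endothelial-like cells held 9 UMIs in 828 barcodes, or 0 to 7.11 CPM. In ILC3-like cells the 8 libraries gave 48.5 to 102.3 CPM, with a median of 81.8 and a mean of 79.5 ± 19.0 (SD, n = 8). B cells gave 17.4 to 94.0 CPM, with a median of 49.1 and a mean of 52.3 ± 21.8 (SD, n = 8). The ranges of ILC3-like and B cells overlapped, as did those of B cells and each of Treg-like and Th17-like cells.

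Among T cells, Ccr6 followed the class. Treg-like cells, which carry the regulatory factor Foxp3, gave a mean of 36.2 ± 14.2 CPM (SD, n = 8) and Th17-like cells, which carry Il17a, 32.2 ± 14.1 CPM (SD, n = 8). The order of the 2 classes went with the treatment: Th17-like cells were above Treg-like cells in each of the 4 untreated libraries (34.1 to 51.1 against 22.8 to 27.0 CPM) and below them in each of the 4 DSS libraries (4.95 to 37.4 against 32.1 to 60.5 CPM). That difference was not tested. Th1 or cytotoxic T-like cells gave 13.5 ± 6.98 CPM and follicular helper T-like cells 9.88 ± 4.47 CPM (SD, n = 8 each). Naive or central memory T-like cells gave 0 to 1.57 CPM, below every library of the other named T cell classes. ILC2-like cells held 1 Ccr6 UMI in 211 barcodes, against 262 UMIs in the 1033 ILC3-like barcodes.

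Free RNA in the droplets gives UMIs to cells that do not express a gene, and its level was read in cells that should lack Ccr6. Fibroblast-like cells held 2 Ccr6 UMIs in 5765 barcodes (0 to 0.27 CPM) although their median depth of 4319 UMIs was above that of T cells (1951), B cells (1646) and ILC3-like cells (2632). After thinning, 7.13% of ILC3-like barcodes had a Ccr6 UMI (72 of 1010, exact binomial 95% interval 5.62% to 8.89%), 4.79% of B cells (4.13% to 5.52%), 3.45% of Treg-like cells (3.11% to 3.81%) and 2.81% of Th17-like cells (2.45% to 3.20%). The last 2 shares pool the treatments: without treatment the mean share of a group was higher in Th17-like than in Treg-like cells (3.11% and 2.05% in the wildtype, 3.74% and 2.66% in the mutant), and after DSS it was lower (2.22% and 4.15%, 1.65% and 3.49%, n = 2 each). The untreated mutant order came from replicate 1 (16 of 325 Th17-like and 16 of 581 Treg-like barcodes). In mutant untreated replicate 2 the shares were nearly equal (26 of 1020 and 17 of 665). In fibroblast-like cells 0 of 5640 thinned barcodes had one, which allows a share of up to 0.0654%. Without thinning the shares were 19.1% of ILC3-like, 8.82% of B, 7.51% of Treg-like and 5.75% of Th17-like barcodes. The intervals cover counting error only.

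Ccl20 had another order. Th17-like cells led the named T cell classes with 21.4 to 186 CPM (median 58.8, mean 73.4 ± 50.9, SD, n = 8), ahead of Treg-like cells with 5.56 to 43.2 CPM (median 16.1). The level of Th17-like cells was above that of Treg-like cells in each of the 8 libraries. Th1 or cytotoxic T-like cells gave 0.94 to 12.1 CPM, and follicular helper and naive T-like cells at most 3.95 CPM in any library.

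B cells held 4 Ccl20 UMIs in 4057 barcodes (0 to 2.17 CPM), near the level of fibroblast-like cells (0 to 0.80 CPM), although the same B cells held 436 UMIs of Ccr6. In ILC3-like cells Ccl20 was tied to T cell transcripts. Of the 1033 ILC3-like barcodes, 25.7% had a UMI of Cd3d, Cd3e or Cd3g, subunits of the T cell receptor complex, against 87.3% of T cells, 2.32% of B cells and 3.57% of fibroblast-like cells. Those 265 barcodes held 72 of the 73 Ccl20 UMIs, 53 of them in 1 barcode of a mutant untreated library, and had a median of 4680 UMIs; the 768 without a Cd3 UMI had 1 Ccl20 UMI and a median of 2401 UMIs. Over all libraries Ccr6 was 81.5 CPM in ILC3-like barcodes without a Cd3 UMI and 74.2 CPM in those with one, but the direction differed between groups: it was 111 ± 18.9 against 51.1 ± 7.86 CPM in the wildtype DSS libraries and 64.7 ± 24.6 against 96.3 ± 17.5 CPM in the mutant untreated ones (SD, n = 2), and the split was not tested.

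**Figure D1:**
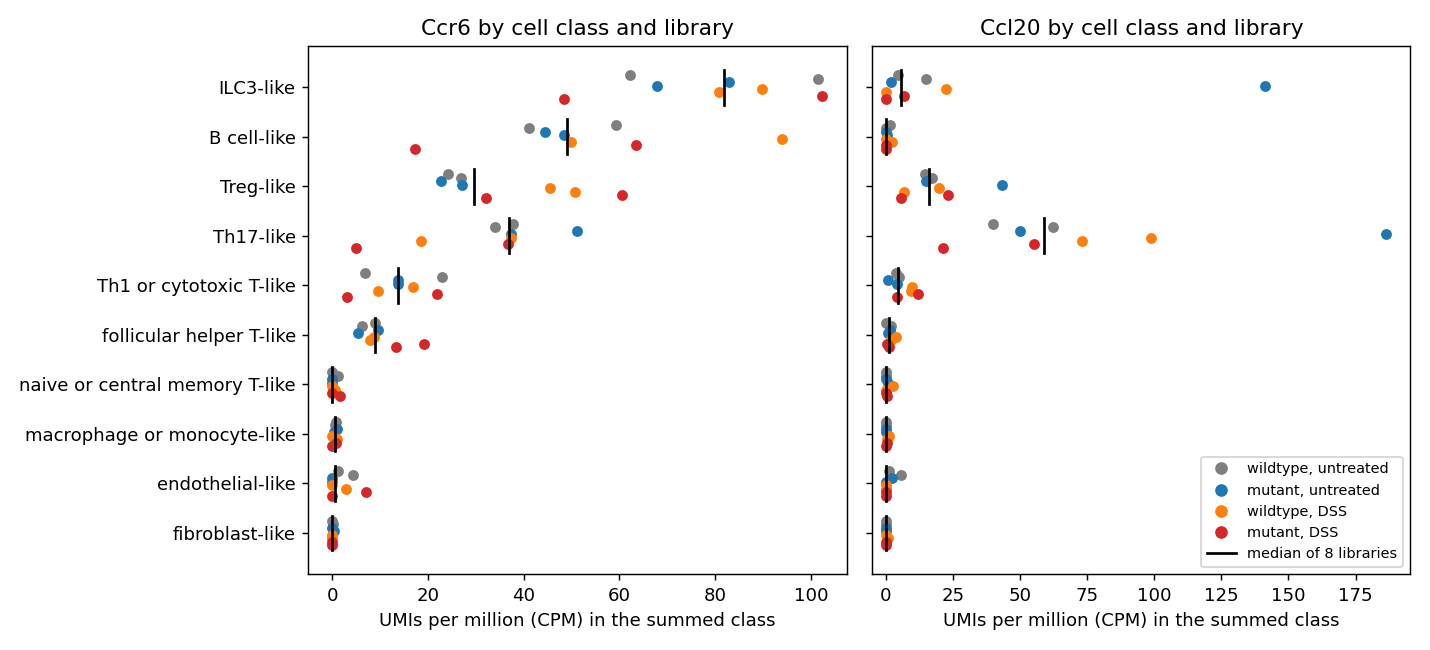
Levels of Ccr6 and Ccl20 in CPM (linear axis) in each cell class, with 1 point per library coloured by group and a line at the median of 8 libraries. Ccr6 is highest in ILC3-like cells (48.5 to 102.3 CPM) and B cells (17.4 to 94.0 CPM), while Ccl20 is highest among the named lymphocyte classes in Th17-like cells (21.4 to 186 CPM).

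Most UMIs of both genes lay in T cells. T cells made up 61.3% of the barcodes and held 71.0% of the Ccr6 UMIs and 71.99% of the Ccl20 UMIs. B cells were 4.19% of barcodes with 9.92% of Ccr6 UMIs, and innate lymphoid cells were 1.29% of barcodes with 5.99% of Ccr6 UMIs. Other named clusters held 0.87% of the Ccr6 UMIs but 12.2% of the Ccl20 UMIs, nearly all of the latter in squamous epithelium-like cells, and mixed or unnamed clusters held 12.3% and 14.5%.

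Within T cells the 2 genes were spread differently. Summed over the libraries, Treg-like cells held 34.4% of the T cell Ccr6 UMIs, Th17-like cells 19.2% and Th1 or cytotoxic T-like cells 14.4%. Unnamed T cell clusters of 4257 and 2329 barcodes held 15.3% and 9.95%. The DSS libraries gave the order of Treg-like before Th17-like cells (Treg-like 36.2% to 58.6%, Th17-like 1.94% to 27.1%). In each untreated library Treg-like cells held less (13.1% to 19.9%) than Th17-like cells (17.8% to 34.2%), and in wildtype untreated replicate 2 Th1 or cytotoxic T-like cells held more than either (31.6%). The class sizes differed too: Treg-like cells were 11.2% to 13.8% of T cell barcodes in the untreated libraries and 22.4% to 25.1% in the DSS ones. Th17-like cells were 6.52% to 16.7% of T cell barcodes in the untreated libraries and 6.31% to 28.2% in the DSS ones. For Ccl20, Th17-like cells held 32.3% and Treg-like cells 9.4%, with Th17-like cells ahead of Treg-like cells in every library but mutant DSS replicate 2 (19.4% and 23.1%). The unnamed clusters of 4257 and 2329 barcodes held 18.4% and 11.7%. A further 22.3% lay in an unnamed T cell cluster of 2132 barcodes (3.6% of T cells), whose leading genes were globin genes, Hspa1a, Hspa1b, Ccl20, Il22, Il17a and Ifng. Its share was 63.6% and 30.04% in the mutant untreated libraries and 2.72% to 18.2% in the others. In that cluster Ccl20 was 274 CPM, and ranged from 16.6 to 587 CPM over the libraries, while Ccr6 was 13.1 CPM.

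**Figure D2:**
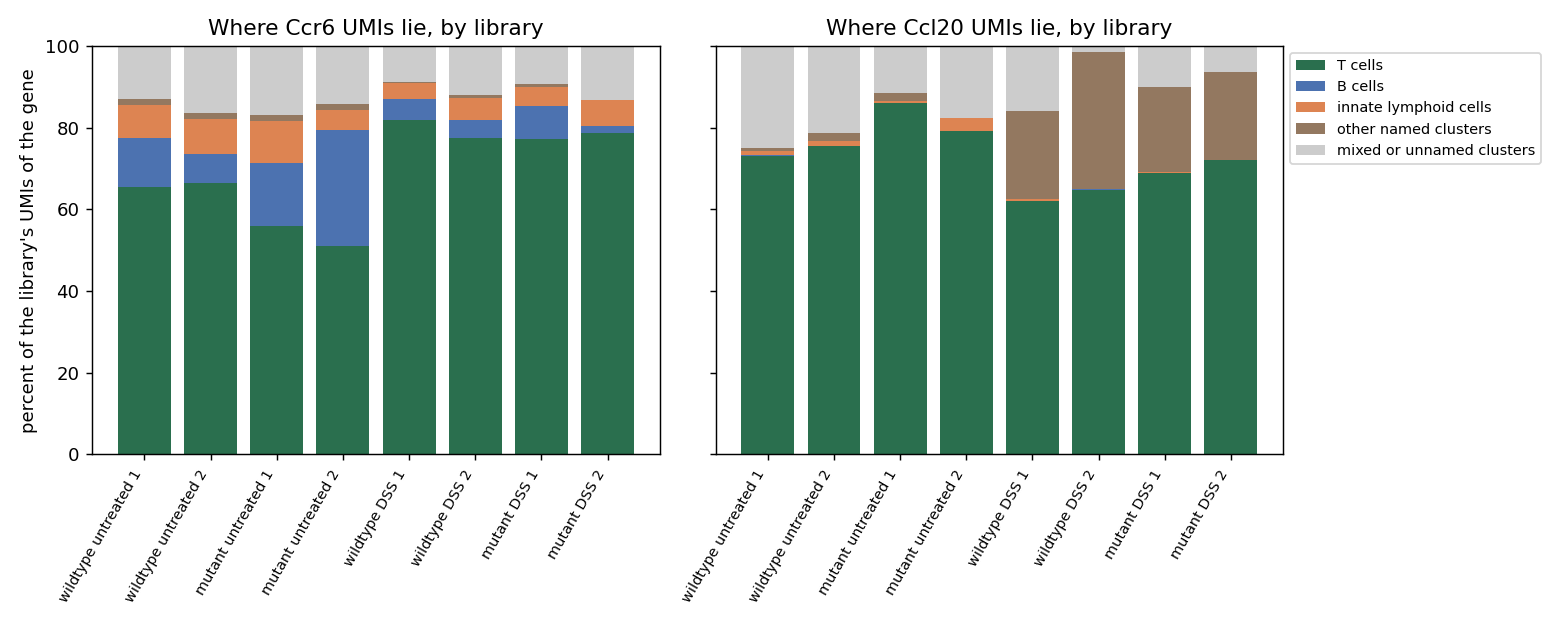
Percent of a library's Ccr6 UMIs (left) and Ccl20 UMIs (right) that lies in each kind of cluster, with 1 stacked bar per library. T cells hold 51.02% to 81.9% of Ccr6 and 62.05% to 86.1% of Ccl20 UMIs, and other named clusters hold 20.8% to 33.7% of the Ccl20 UMIs in the 4 DSS libraries and at most 2.01% in the untreated ones.

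The ligand was more concentrated in few cells than the receptor. Among T cells, 2448 barcodes held the 3117 Ccr6 UMIs, 80.1% of these barcodes had exactly 1 UMI, and the highest had 8. Ccl20 lay in 1285 T cell barcodes with 4293 UMIs, 51.8% of them had exactly 1 UMI, and the highest had 82. The 222 T cell barcodes with at least 5 Ccl20 UMIs held 60.1% of all T cell Ccl20 UMIs, while barcodes with at least 5 Ccr6 UMIs held 2.57% of the Ccr6 UMIs.

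This concentration was seen in every library. The share of T cell Ccl20 UMIs in barcodes with at least 5 ran from 36.4% in wildtype untreated replicate 1 to 76.4% in mutant untreated replicate 1. In mutant untreated replicate 2, which had the highest T cell level of Ccl20, 66 barcodes held 74.6% of its 1368 UMIs.

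DSS was first compared with no treatment for Ccr6 in Treg-like cells. The wildtype untreated libraries gave 24.2 and 26.8 CPM, the mutant untreated ones 22.8 and 27.0, the wildtype DSS ones 45.5 and 50.7, and the mutant DSS ones 60.5 and 32.1. All 4 DSS libraries lay above all 4 untreated libraries, and the genotypes overlapped at each treatment. DSS against no treatment gave a log2 fold change of 0.87 ± 0.27 (SE) in the wildtype (edgeR quasi-likelihood test with Benjamini-Hochberg adjustment over 9903 genes, adjusted p = 0.139) and 0.83 ± 0.29 in the mutant (edgeR, adjusted p = 0.0966). Neither passed the threshold of 0.05, in comparisons where 0.606% and 5.44% of all tested genes did. The mutant comparison passed without mutant DSS replicate 2 (1.23), was 0.31 without mutant DSS replicate 1, and passed on the barcodes of the authors' cell list (1.36). The wildtype comparison passed without either of the mutant DSS libraries, and stayed between 0.80 and 0.95 whichever library was left out.

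The Treg-like class is made up of 2 clusters. In the cluster led by Foxp3, Il10 (an anti-inflammatory cytokine) and Gzmb, the untreated libraries gave 21.3 to 30.5 CPM and the DSS libraries 40.2 to 68.5 CPM, without overlap. In the cluster led by Il1rl1 (the receptor for IL-33) and Ikzf2 (Helios), the untreated libraries gave 18.3 to 33.4 CPM and the DSS libraries 15.01 to 43.9 CPM, with overlap. The difference between the 2 clusters was not tested.

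In Th17-like cells Ccr6 was 37.8 and 34.1 CPM in wildtype untreated libraries, 51.1 and 37.4 in mutant untreated ones, 37.4 and 18.5 in wildtype DSS ones, and 36.7 and 4.95 in mutant DSS ones. Both mutant DSS libraries lay below both mutant untreated ones, the wildtype groups overlapped, and mutant DSS replicate 2 stood apart, with 6 Ccr6 UMIs in 442 barcodes. DSS against no treatment gave -0.30 ± 0.46 in the wildtype (edgeR, adjusted p = 0.808; 0.0832% of 8413 genes passed) and -0.71 ± 0.44 in the mutant (edgeR, adjusted p = 0.356; 3.89% passed). Leaving out mutant DSS replicate 1, so that replicate 2 stood alone, the latter was -3.12 and passed the threshold; leaving out replicate 2 it was -0.25.

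In B cells Ccr6 was 59.4 and 41.2 CPM (wildtype untreated), 44.5 and 48.4 (mutant untreated), 94.0 and 49.8 (wildtype DSS), and 63.4 and 17.4 (mutant DSS). Again mutant DSS replicate 2 was the lowest library, with 7 UMIs in 155 B cells, and the groups of each comparison overlapped. In both genotypes DSS replicate 2 was below DSS replicate 1, here as in Th17-like cells. The 4 comparisons gave log2 fold changes from -0.58 ± 0.36 (mutant against wildtype after DSS; edgeR, adjusted p = 0.998) to 0.46 ± 0.36 (DSS in wildtype; edgeR, adjusted p = 0.573), where 0% and 0.933% of 6965 genes passed. Without mutant DSS replicate 1 the first became -2.05 and without mutant DSS replicate 2 it was -0.05, and neither passed.

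In ILC3-like cells Ccr6 was 62.2 and 101.5 CPM in the wildtype untreated libraries, 82.8 and 67.9 in mutant untreated, 89.7 and 80.8 in wildtype DSS, and 102.3 and 48.5 in mutant DSS. Each group held values near those of each other group, and mutant DSS replicate 2 was once more the lowest. The 4 comparisons, run on ILC3-like barcodes only, gave log2 fold changes of -0.22 ± 0.34 to 0.02 ± 0.34 (edgeR, adjusted p = 0.914 to 1), where 0% (mutant against wildtype after DSS) to 0.675% (DSS in the mutant) of 5632 genes passed. The depth was 93 to 157 ILC3-like barcodes and 25 to 46 Ccr6 UMIs per library, so changes well above the standard error could be missed. In Treg-like cells, a Ccr6 change of 0.87 ± 0.27 with DSS in the wildtype did not pass (edgeR, adjusted p = 0.139).

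Over all T cells Ccr6 was 13.4 and 20.1 CPM in wildtype untreated, 15.6 and 17.2 in mutant untreated, 28.7 and 21.7 in wildtype DSS, and 35.5 and 13.3 in mutant DSS. Both wildtype DSS libraries lay above both wildtype untreated ones, while the mutant DSS libraries held the highest and the lowest value of all 8. DSS gave 0.51 ± 0.40 in the wildtype (edgeR, adjusted p = 0.492; 0.111% of 12639 genes passed) and 0.47 ± 0.40 in the mutant (edgeR, adjusted p = 0.452; 8.19% passed). The wildtype value was 0.25 without wildtype untreated replicate 1, 0.27 without wildtype DSS replicate 1 and 0.83 without wildtype untreated replicate 2. The mutant value was -0.40 without mutant DSS replicate 1 and 1.02 without mutant DSS replicate 2. From sums over all T cells alone, more Ccr6 RNA per cell and more cells of a class that carries Ccr6 cannot be told apart. Treg-like cells were 11.2% to 13.8% of T cell barcodes in the untreated libraries and 22.4% to 25.1% in the DSS ones. Th17-like cells were 28.2% and 6.31% in mutant DSS replicates 1 and 2. The part of these class shares in the levels was not tested.

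For Ccl20 the highest library over all T cells, in Th17-like cells and in Treg-like cells was mutant untreated replicate 2. In Th17-like cells the wildtype untreated libraries gave 40.1 and 62.2 CPM, the mutant untreated ones 50.02 and 186, the wildtype DSS ones 98.9 and 73.0, and the mutant DSS ones 55.4 and 21.4. Both wildtype DSS libraries were above both wildtype untreated ones, and above both mutant DSS ones, whereas the mutant groups overlapped. DSS gave 0.73 ± 0.45 in the wildtype (edgeR, adjusted p = 0.494; 0.45 without wildtype untreated replicate 1 and 0.46 without wildtype DSS replicate 1) and -1.59 ± 0.43 in the mutant (edgeR, adjusted p = 0.0536), the value nearest to the threshold of all those for Ccl20. The latter passed on the authors' cell list (-2.03) and without mutant untreated replicate 1 or mutant DSS replicate 1, and was -0.24 without mutant untreated replicate 2.

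Between the genotypes, Ccl20 in Th17-like cells differed by 1.29 ± 0.44 without treatment (mutant against wildtype; edgeR, adjusted p = 0.785; 0.0119% of genes passed) and by -1.04 ± 0.44 after DSS (edgeR, adjusted p = 1; 0% passed, with 124 genes at an unadjusted p under 0.05 and 0 by DESeq2). The first difference rested on mutant untreated replicate 2, without which it was -0.08. The second was -2.06 without mutant DSS replicate 1 and -0.69 without mutant DSS replicate 2. In Treg-like cells Ccl20 was 14.5 and 17.2 CPM (wildtype untreated), 14.97 and 43.2 (mutant untreated), 19.9 and 6.66 (wildtype DSS), and 23.2 and 5.56 (mutant DSS), with overlap between all groups. Its 4 log2 fold changes there ran from -1.11 ± 0.61 (DSS in the mutant; edgeR, adjusted p = 0.28) to 0.87 ± 0.69 (mutant against wildtype untreated, where 0.0101% of all genes passed; edgeR, adjusted p = 0.991).

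**Figure D3:**
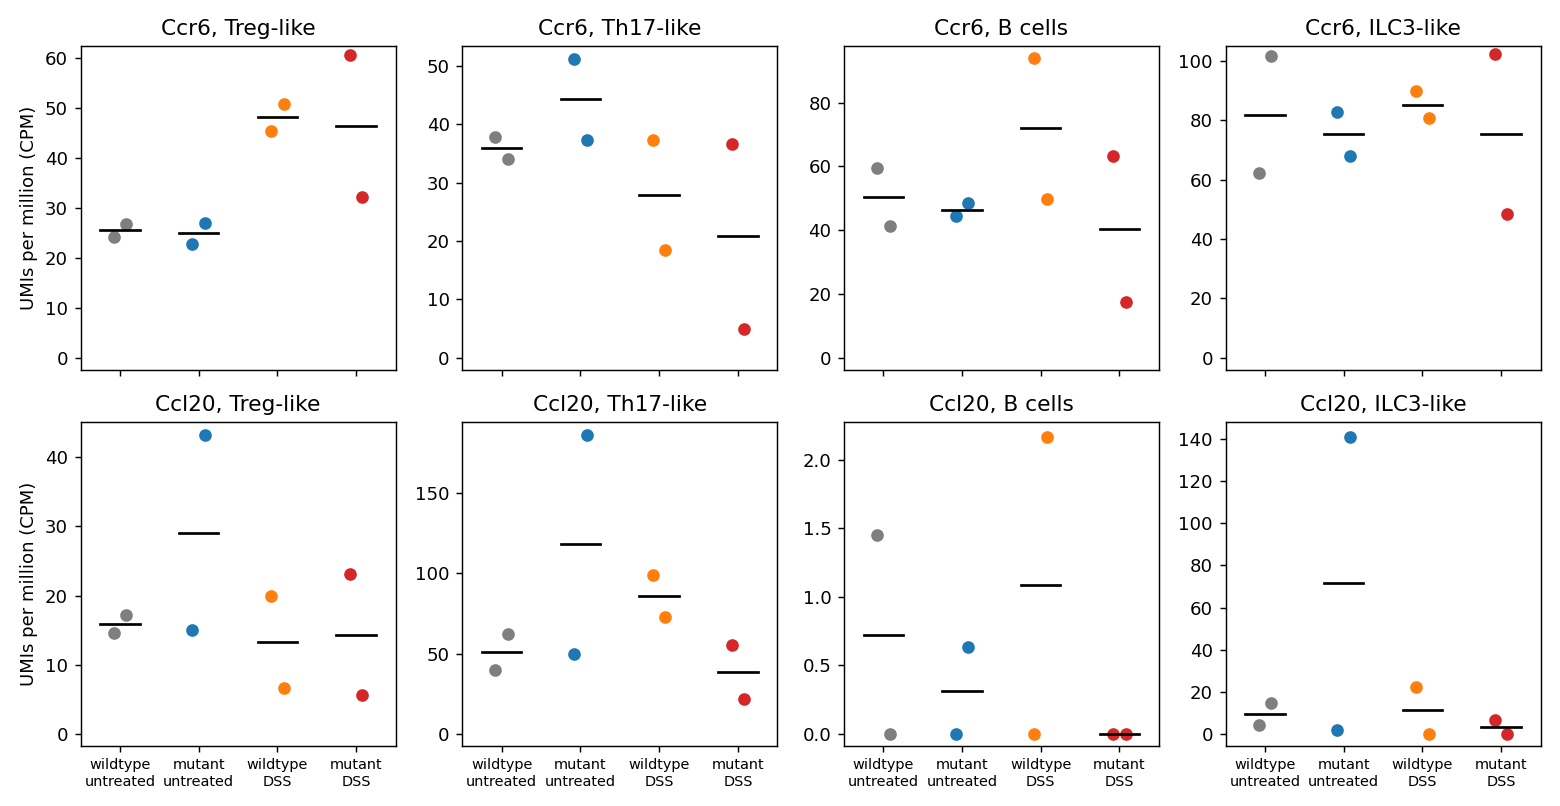
Ccr6 and Ccl20 in CPM in Treg-like, Th17-like, B and ILC3-like cells by group, with 1 point per library and a bar at the group mean of 2 libraries. In Treg-like cells all 4 DSS libraries lie above the untreated ones for Ccr6 (32.1 to 60.5 against 22.8 to 27.0 CPM), and mutant untreated replicate 2 is the highest Ccl20 library in Th17-like (186 CPM) and Treg-like cells (43.2 CPM).

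Over all T cells Ccl20 was 10.9 and 21.4 CPM in wildtype untreated, 27.8 and 85.6 in mutant untreated, 40.8 and 15.2 in wildtype DSS, and 34.2 and 5.78 in mutant DSS. The mutant untreated libraries lay above the wildtype untreated ones, and every other pair of groups overlapped. DSS replicate 2 was below DSS replicate 1 in both genotypes, as it was in Treg-like cells. The effect of DSS differed between the genotypes by -2.35 ± 1.14 on the log2 scale (edgeR, adjusted p = 0.999), a test in which 0% of genes passed, 493 had an unadjusted p under 0.05 and DESeq2 called 5. It was -4.14 without mutant DSS replicate 1, -1.28 without mutant untreated replicate 2 and -1.45 without wildtype DSS replicate 1. Mutant against wildtype without treatment gave 1.83 ± 0.82 (edgeR, adjusted p = 0.887), where 0% passed, 713 had an unadjusted p under 0.05 and DESeq2 called 34. It was 0.76 without mutant untreated replicate 2 and at most 2.42 without any other library. Mutant against wildtype after DSS gave -0.53 ± 0.80 (edgeR, adjusted p = 1), where 0% passed, 144 had an unadjusted p under 0.05 and DESeq2 called 0. Heat-shock genes moved with Ccl20 in mutant against wildtype without treatment, where all 10 were higher (median log2 fold change 1.40, beside -0.01 over all genes), and in the difference of the DSS effect, where all 10 were negative (median -1.62, beside 0.01); none passed in either, and their part in the level of Ccl20 was not tested.

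Other genes of the pathway were read in the same fits. In Th17-like cells of the mutant, 4 of the 12 type 17 genes fell after DSS and none rose: Il22 by 1.85 ± 0.38 (adjusted p = 0.0167), Il23r by 1.39 ± 0.32, Il17f by 1.26 ± 0.29 and Batf by 0.66 ± 0.15 (edgeR, adjusted p = 0.0278 to 0.0282 for these 3). The median of the list was -0.35, beside 0.02 over all 8413 genes, of which 1.87% rose and 2.02% fell. In the same comparison 6 of 10 heat-shock genes fell (median -1.42), and 2 of 12 tested chemokine receptors rose. The type 17 calls were lost in 2 to 7 of 12 alternatives, among them leaving out either mutant untreated library. In wildtype Th17-like cells, where 0.0594% of all genes rose and 0.0238% fell, 0 of the 12 type 17 genes passed, with Cxcr4, the receptor for CXCL12, the 1 chemokine receptor that rose (1.17 ± 0.20, edgeR, adjusted p = 0.0455), a call lost in 6 of 12 alternatives.

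Over all T cells, Foxp3 rose after DSS in the wildtype by 1.24 ± 0.15 (edgeR, adjusted p = 0.0228), from 57.3 and 47.5 CPM to 127 and 134 CPM, where 0.0791% of all genes rose and 0.0316% fell. In the mutant it rose by 1.62 ± 0.15 (edgeR, adjusted p = 0.00986), from 45.4 and 35.3 CPM to 119 and 146 CPM, where 4.3% of all genes rose and 3.88% fell. The Treg-like share of T cell barcodes went from 13.8% and 12.9% to 25.1% and 23.4% in the wildtype. In the mutant that share went from 12.0% and 11.2% to 22.4% and 24.1%. Its part in the Foxp3 sums was not tested. Of 15 other chemokine and egress receptors, Ccr2 (1.02 ± 0.17) and Cxcr4 (0.90 ± 0.19) rose and Cxcr5 (-1.38 ± 0.28) and S1pr1 (-0.60 ± 0.13) fell after DSS in the mutant (edgeR, adjusted p = 0.0221 to 0.037), and 0 passed in the wildtype. In the same mutant comparison 7 of 10 heat-shock genes fell (median -1.78, beside 0.01 over all genes), and their part in these changes was not tested. The wildtype Foxp3 call was lost without either of the wildtype untreated libraries or wildtype DSS replicate 2, and the mutant one without mutant untreated replicate 1. The 4 receptor calls were lost without either of the mutant untreated libraries or mutant DSS replicate 2.

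In Treg-like cells 1 of 12 type 17 genes passed in each genotype after DSS, Il1r1 in the wildtype and Il22 in the mutant, both upward, where 0.222% and 2.19% of all genes rose. In B cells the type 17 list had 6 tested members, of which Rora and Maf rose in the mutant (2.9% of all genes rose there, and 6.06% passed in either direction). The B cell sums also held markers of other cells. Over the libraries, T cell markers summed to 14.9 to 75.8 CPM and macrophage or monocyte markers to 58.9 to 498 CPM. Their part in these 2 rises was not tested. Cxcr4 rose in B cells after DSS in both genotypes (0.574% of all genes rose in the wildtype), and in ILC3-like cells it was the 1 receptor of 11 tested that passed, also upward, in the mutant (0.32% of all genes rose there, and 0.675% passed in either direction). In mutant against wildtype without treatment, 10 of 10 heat-shock genes were higher in B cells (0.158% of all genes passed) and 8 of 10 in ILC3-like cells (0.16% of all genes passed); Ccr6 differed there by -0.07 ± 0.31 and -0.08 ± 0.34.

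Receptor and ligand were also read in the same cells. At 1000 UMIs per barcode, 975 of 55576 T cells had a Ccr6 UMI, 723 had a Ccl20 UMI and 18 had both beside 12.7 from the product of the 2 shares. In Th17-like cells 4 barcodes had both, beside 8.51, and in Treg-like cells 6, beside 3.86. At this depth few barcodes show either gene, so few can show both; these counts are descriptions, and a departure from the product was not tested.

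T cells with a Ccr6 UMI were next compared with those without, within each library, for all other genes. The side with a UMI held 63 to 255 barcodes per library. Of 8617 genes, 78 were higher (0.905%) and 353 lower (4.1%), but this split depended on the scaling: the median of all genes was -0.12, and with RLE size factors, which moved it to 0.00, 160 were higher and 148 lower. With a minimum of 10 CPM, 138 were higher and 170 lower, and with 20 CPM 154 and 148. Of the 431 calls, 226 were also called with RLE size factors, 243 at 10 CPM and 217 at 20 CPM. DESeq2 called 186. The fold changes named below are the fitted values, not shifted by the median of -0.12.

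T cells with Ccr6 carried more type 17 transcripts: 6 of 12 genes were higher and 1 was lower (median 0.51). Il23r, the receptor for IL-23, had 62.8 ± 26.1 CPM with Ccr6 and 15.9 ± 6.41 without (SD, n = 8), higher by 1.70 ± 0.26 on the log2 scale (edgeR, adjusted p = 1.02e-08). Il17a, the cytokine that names the programme, was higher by 0.82 ± 0.08 (edgeR, adjusted p = 1.32e-23). Both were higher in 8 of 8 libraries.

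Il1r1, the IL-1 receptor, was higher by 0.91 ± 0.16, Il17f by 0.81 ± 0.16, Il22 by 0.69 ± 0.13 and Rora by 0.34 ± 0.07, and Stat3 was lower by 0.29 ± 0.08 (edgeR, adjusted p at most 0.00963). On the barcodes of the authors' list Il23r, Il1r1 and Il17f no longer passed.

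Of the other fates, Foxp3 was higher with Ccr6 (0.96 ± 0.13; 7 of 8 libraries) and so was Il1rl1 (0.59 ± 0.19), while Ikzf2 was lower (-0.43 ± 0.11). The type 1 genes were lower: Ifng, the type 1 cytokine, by 1.53 ± 0.16, and its regulator Tbx21 with 3 UMIs on the side with Ccr6, a ratio of 0.152 (95% counting interval 0.0313 to 0.445). Foxp3 and Ifng passed in all 17 alternatives run for them, Il1rl1 in 7 of 17. Over all libraries, 37.0% of T cells with Ccr6 were Treg-like and 22.5% Th17-like, beside 18.8% and 14.0% of all T cells at the same depth. The DSS libraries carried that order (Treg-like 37.3% to 61.9%, Th17-like 1.59% to 32.5% of T cells with Ccr6). In the untreated libraries Treg-like cells made up 16.9% to 23.9% and Th17-like cells 21.9% to 32.5%, with the 2 equal in mutant untreated replicate 1. Th1 or cytotoxic T-like cells made up 19.4% to 34.3% there, more than either in wildtype untreated replicate 2. Their share was above that of all T cells in that library (34.3% against 33.5%) and in mutant untreated replicate 2 (27.5% against 22.5%). It was below in each other library, and over all libraries (19.4% against 29.9%). Treg-like cells were a larger share of T cells with Ccr6 than of all T cells in every library. Th17-like cells were a smaller one in wildtype DSS replicate 2 (5.11% against 7.27%) and mutant DSS replicate 2 (1.59% against 6.35%). They were a larger one in each other library, though by little in mutant DSS replicate 1 (32.5% against 29.3%).

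Of 13 other chemokine and egress receptors tested, Ccr4, the receptor for CCL17 and CCL22, was higher (1.22 ± 0.22, 78.6 ± 30.4 against 28.8 ± 4.999 CPM, SD, n = 8), and 1 receptor was lower. Chemokine ligands were lower in 3 of 7, led by the T cell attractant Ccl5, with 67.8 ± 51.3 against 701 ± 236 CPM (-3.47 ± 0.14, lower in 8 of 8 libraries) and Ccl4 (-1.80 ± 0.45). Xcl1 had 1 UMI on the side with Ccr6 (ratio 0.118, interval 0.00297 to 0.659). In the signal chain of the receptor, Rgs1, a brake on its G protein, was lower by 0.33 ± 0.07, and in the NF-kB list Tnfaip3 by 0.32 ± 0.08; both lost the call at 20 CPM (edgeR, adjusted p = 0.0816 and 0.09). None of the 7 lymphoid tissue inducer genes tested passed. Heat-shock genes were lower in 7 of 10, Hspa1b most (-0.79 ± 0.13).

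The 10 genes with the largest rise on the Ccr6 side, among those with at least 5 CPM, were Klrb1f (1.73 ± 0.45), Anxa1, Il23r, Tff1 (1.40 ± 0.25), Matn2, Srgap3, Glb1, Ccr4, Ston2 and Cpe (1.09 ± 0.22). Tff1 was 64.5 ± 29.2 against 19.4 ± 7.70 CPM and higher in 8 of 8 libraries, whereas Anxa1 was higher in 2 of 8 and lost the call without mutant DSS replicate 2. The 5 called genes with the lowest fitted values had 0 UMIs with Ccr6, so only a bound of their fall is known and they cannot be ranked against measured falls: Itga1, an integrin of tissue-resident cells, was at least 4.94-fold lower (3 counts over the 8 libraries taken as the floor), Atp1b1 at least 3.35-fold, Ifi213 2.44-fold, St8sia6 2.39-fold and Bcl7a 2.12-fold. On simulated data the comparison called too many low-count genes, mostly as lower. That doubt applies to these 5 calls and to the other falls of genes with few UMIs. Ccl20 gave -0.19 ± 0.29 (edgeR, adjusted p = 0.837), and -1.93 on the authors' cell list (edgeR, adjusted p = 0.0791).

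T cells with a Ccl20 UMI, 26 to 169 barcodes per library, differed from those without in 582 of 8543 genes, 156 higher (1.83%) and 426 lower (4.99%), with a median of -0.17 over all genes. With RLE size factors (median -0.04) the split was 292 and 247, with a minimum of 10 CPM 204 and 304, and with 20 CPM 249 and 244; 403, 445 and 370 of the 582 calls were shared. DESeq2 called 325.

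T cells with Ccl20 carried more type 17 transcripts: 7 of 12 genes were higher and 0 lower (median 0.87). Il17a had 3502 ± 1285 CPM with Ccl20 and 554 ± 391 without (SD, n = 8), higher by 2.58 ± 0.10 on the log2 scale (edgeR, adjusted p = 1.43e-157). Il22, a cytokine that acts on epithelium, was higher by 2.59 ± 0.12, Il17f by 2.30 ± 0.14 and Irf4 by 1.86 ± 0.17, each in 8 of 8 libraries and in all 17 alternatives. Ahr (0.80 ± 0.14), Il1r1 (0.95 ± 0.19) and Il23r (0.97 ± 0.33; edgeR, adjusted p = 0.048) completed the list.

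In the share of cells, 55.3% ± 13.3 of T cells with Ccl20 had an Il17a UMI, beside 13.8% ± 7.55 of those without (SD, n = 8). With Ccr6 the share was 27.4% ± 11.1, beside 14.1% ± 7.77 without. The difference between Ccl20 and Ccr6 was not tested. Over all libraries 41.9% of T cells with Ccl20 were Th17-like and 15.5% Treg-like, beside 14.0% and 18.8% of all T cells at the same depth. The 2 classes were equal in mutant DSS replicate 2 (30.8% each). The unnamed cluster led by globin and heat-shock genes held 14.4%, beside 3.25% of all T cells. In mutant untreated replicate 1 it held 43.9% and Th17-like cells 26.8%. Ifng was 699 ± 462 CPM with Ccl20 against 182 ± 55.7 without (1.65 ± 0.12; higher in 8 of 8 libraries), where for Ccr6 it was lower in 8 of 8.

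Other cytokine genes were higher with Ccl20 as well: Il10 by 1.60 ± 0.14 and Areg, a growth factor for epithelium, by 1.44 ± 0.10. Il1rl1 was lower by 2.52 ± 0.44, Ikzf2 by 2.13 ± 0.19, Bcl6, the factor of follicular helper cells, by 1.33 ± 0.39 and Gata3, the factor of type 2 cells, by 0.76 ± 0.23. Foxp3 gave -0.39 ± 0.22 (edgeR, adjusted p = 0.348).

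Of 12 receptors tested, 4 were higher, among them Ccr1 (1.62 ± 0.20), Cxcr6 (0.73 ± 0.12) and Ccr2 (0.49 ± 0.13), and 2 were lower, S1pr1, which lets T cells leave tissue (-2.31 ± 0.28), and Ccr7 (-0.66 ± 0.18). S1pr1 was 29.9 ± 22.1 CPM with Ccl20 against 122 ± 20.7 without (SD, n = 8), lower in 8 of 8 libraries. Ccr6 gave 0.12 ± 0.39 (edgeR, adjusted p = 0.917); without thinning, where deeper cells are more often on the side with a UMI, it was 0.46 (edgeR, adjusted p = 0.0304).

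Of 7 other ligands tested, the neutrophil attractant Cxcl2 was higher (1.69 ± 0.16) and Cxcl10 too (0.74 ± 0.19), Ccl5 was lower (-2.97 ± 0.16) and Xcl1, with 0 UMIs, at least 2.1-fold lower. Cxcl10 no longer passed without the cluster led by heat-shock genes (edgeR, adjusted p = 0.401). In the NF-kB system the inhibitors Nfkbid (1.20 ± 0.18) and Nfkbia (0.58 ± 0.10) were the 2 of 9 that passed, both higher. Rgs1 was higher (0.42 ± 0.09), Kit higher (1.19 ± 0.32) and Il7r lower (-0.52 ± 0.14).

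Among the largest rises outside the lists were Cxcl3 (2.38 ± 0.14), Cpe (1.97 ± 0.20), AC163354.1, Ppp1r14c (1.87 ± 0.22), Rbm24 and Gm48236. The 5 called genes with the lowest fitted values had 0 UMIs with Ccl20 and are likewise known only by a bound: Tdrp at least 3.6-fold lower, Cd7 3.25-fold, Gpm6b 2.99-fold, Klrg1 2.88-fold and Fam43a 2.45-fold. The doubt from simulated data, where too many low-count genes were called lower, applies to these 5 and to Xcl1 as well. Heat-shock genes did not move as a group: Hspa1b was higher by 1.57 ± 0.12 and Hspa1a by 1.32 ± 0.11, Hsph1 was lower by 0.38 ± 0.12 (a call lost in 8 of 17 alternatives), and the other 7 did not pass. Without the cluster led by heat-shock genes Hspa1b and Hspa1a were still higher (0.97 and 0.74) and Il17a gave 2.49; the part of the stress response in the level of Ccl20 was not tested further.

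**Figure D4:**
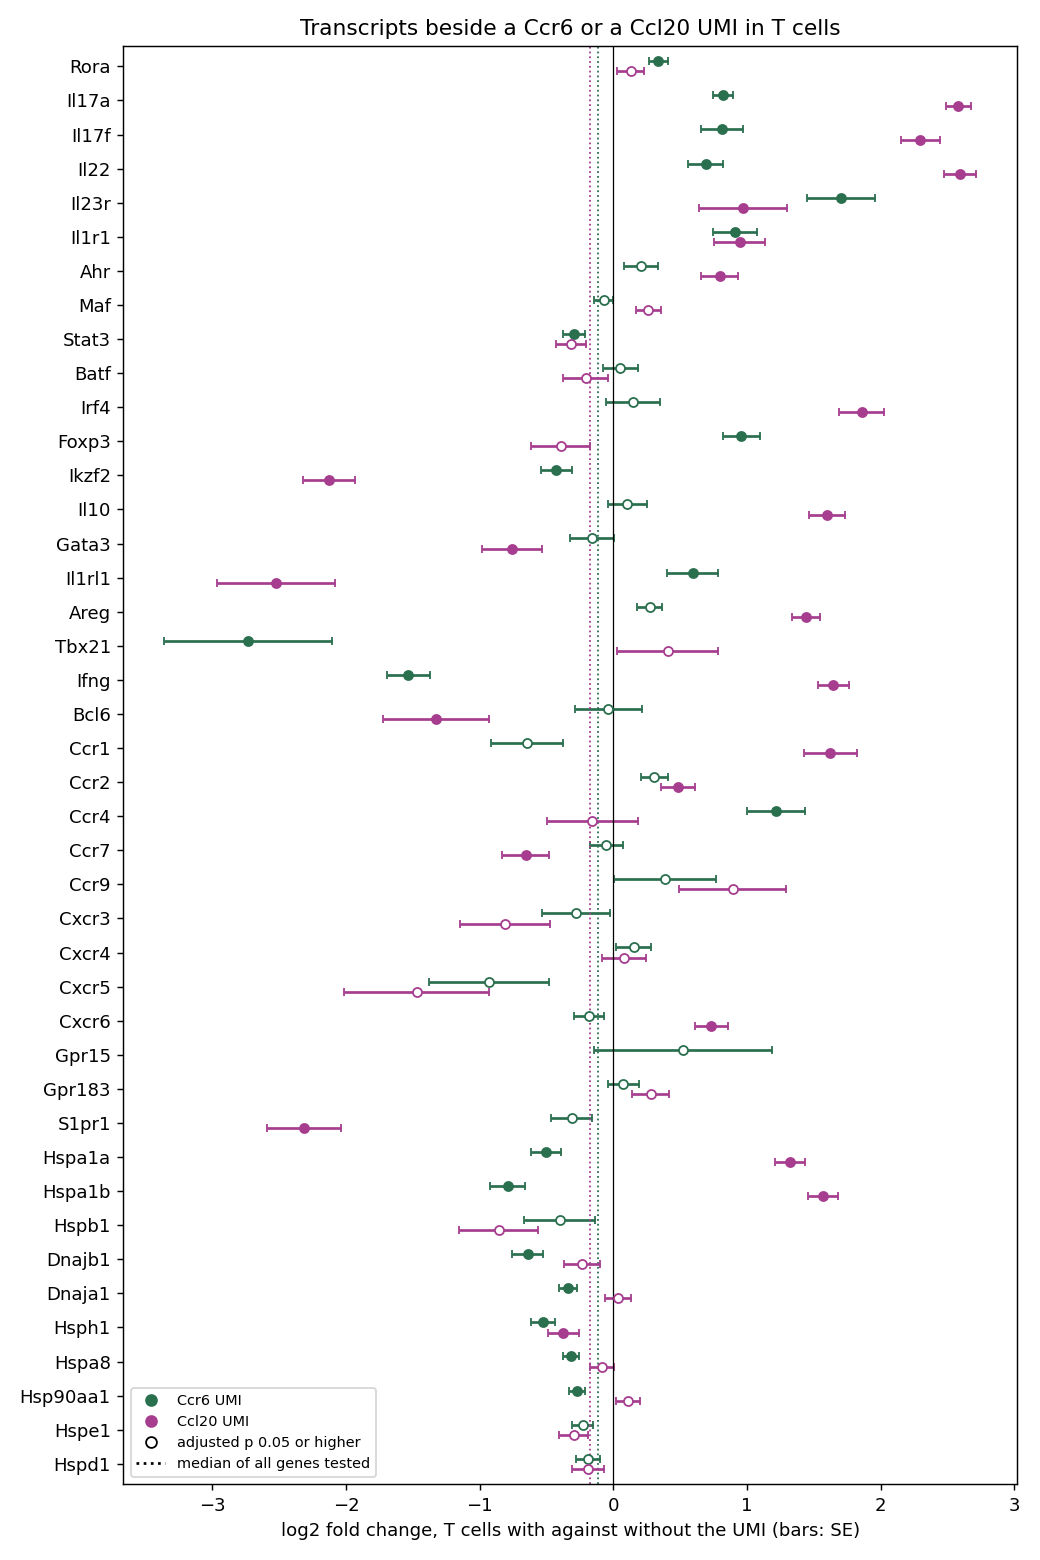
Log2 fold change with standard error between T cells with and without a UMI of Ccr6 or Ccl20, for members of the type 17, other fate, receptor and heat-shock lists; open points had an adjusted p of 0.05 or higher and dotted lines mark the median of all genes tested. Il17a, Il17f and Il22 lie at 2.30 to 2.59 beside Ccl20 and at 0.69 to 0.82 beside Ccr6, and Ifng lies above 0 for Ccl20 and below 0 for Ccr6.

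Across 125 sums of a class in a library (17 classes), the genes whose log2(CPM + 1) followed Ccr6 most were Smap2 (Pearson r = 0.787), Rnf157 (0.772), Fnbp1 (0.771), Hmces (0.759) and Rab37 (0.751). Those most like Ccl20 were Ppp1r14c (0.798), Cpe (0.789), Il17a (0.773), Acsbg1 (0.766) and Rbm24 (0.753). Between Ccr6 and Ccl20 r was 0.484, which put Ccr6 at rank 434 of 12447 genes for Ccl20, and Ccl20 at rank 1571 for Ccr6. The sums of a library share its depth and preparation, so these values are descriptions.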

How the data were processed

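The authors deposited UMI counts per gene and cell barcode for 8 libraries; Cell Ranger 3.1.0, Seurat 4.0.1 and the build mm10 are named per the submitters' processing notes, and how barcodes were called is not given in the sources used here. The authors deposited gene symbols separately, in the row order of the tables. Of 31053 rows, 30934 had their Ensembl ID in GENCODE M21 and 30468 the same symbol. Ccr6 and Ccl20 were found by symbol, in 1 row each, and their Ensembl IDs were read at those rows. The authors also deposited a list of 27420 barcodes, used as an alternative. Barcodes with at least 500 UMIs, at least 400 genes and at most 20% mitochondrial UMIs were kept, clustered (2000 variable genes, 30 components, leidenalg 0.10.2) in 2 rounds and named from markers, with the naming thresholds set after the clusters had been seen; Ccr6, Ccl20, other chemokine ligands, heat-shock genes and nearly all of the type 17 list were left out of clustering. Doublets were not called; clusters with markers of several lineages stayed unnamed, and T cells with 2 or more UMIs of other lineages were left out in an alternative. Counts were summed per library and class and tested with edgeR 4.0.16 (quasi-likelihood, TMM, filterByExpr, all 8 libraries in 1 fit, Benjamini-Hochberg adjustment, threshold 0.05) in R 4.3.3; DESeq2 1.42.0 was an alternative. T cells with and without a UMI were compared on counts thinned to 1000 UMIs per barcode, with the library as block. On simulated data that comparison called too many low-count genes, mostly as lower, so minimums of 10 and 20 CPM were added after the planned fit had been seen; several minimums had been compared on simulated data. Named genes are the 2 members, up to 4 called members of each list with the largest fold change, and for the with-against-without comparisons the 10 largest rises and 5 largest falls among called genes of at least 5 CPM, plus the 5 genes most correlated with each member; further list members were named after their values were seen. Some genes of the lists are not reported here by name. The members and lists were chosen with earlier results of these data known.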

Additional observations from a re-analysis of the deposited data

Results flagged for a closer look

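Ccl20 was found in barcodes that no comparison between the groups used. Squamous epithelium-like cells held 709 Ccl20 UMIs in 427 barcodes, 104.2 CPM in all, against 0.18 CPM in fibroblast-like cells, and only 1 Ccr6 UMI. Over the 5 libraries with at least 20 such barcodes the level was 8.61 CPM in mutant untreated replicate 1 (80 barcodes), 484 and 76.0 CPM in the wildtype DSS libraries, and 139 and 21.1 CPM in the mutant DSS libraries. The other 3 libraries, all untreated, had 2 to 7 such barcodes, so the groups were not compared. A cluster of 662 barcodes that mixed glial and squamous markers held 108 Ccl20 UMIs, or 46.8 CPM, of which 102 lay in 1 of the 49 barcodes of wildtype DSS replicate 1 (454 CPM) and 6 in 1 of the 141 of mutant untreated replicate 1. It had 0 in each of the other 6 libraries.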

How the results depend on the processing

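With the library as a unit, the fold changes of Ccr6 and Ccl20 between groups rest on 2 libraries per group, and no alternative that kept the filter, the barcodes and all libraries moved either member past the threshold. No paired analysis was run, because no label says which libraries share a litter, day or run. The 8 titles carry 8 different numbers, and the replicate numbers used here only tell the 2 libraries of a group apart. Some wildtype and mutant titles carry neighbouring numbers, but whether these mark a pair is not stated. B cells could not be analysed on the authors' list, which holds 0 to 8 of them per library. In cell classes of a coarser clustering (resolution 0.5) the mean levels moved by less than 1 SD in 10 of 10 cases. For each change below the cause was not tested, except that a library left out leaves 1 sample in its group, assumed to vary like the other groups. Of the values with no library left out, 73 of 121 counts of called genes stayed within 1.5 times the count reported, and 165 of 191 fold changes of the members kept their direction and side of the threshold. With a library left out these were 103 of 184 and 242 of 288.

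DESeq2 called, for DSS in the mutant, 120 genes in B cells and 25 in ILC3-like cells, and for DSS in the wildtype 444 in T cells, 35 in Th17-like and 103 in Treg-like cells. For mutant against wildtype without treatment it called 34 in T, 2 in Th17-like, 3 in Treg-like, 7 in B and 3 in ILC3-like cells, and 5 for the difference of the DSS effect in T cells. For T cells with against without a UMI it called 325 genes for Ccl20 and 186 for Ccr6.

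On the authors' cell list, DSS in the mutant gave 564 called genes in T, 179 in Treg-like and 14 in ILC3-like cells. DSS in the wildtype gave 33 in T, 3 in Th17-like and 2 in ILC3-like cells, and the genotypes without treatment gave 0 in Th17-like cells. The comparisons by a UMI gave 253 for Ccl20 and 145 for Ccr6. On that list Ccl20 passed for DSS in mutant Th17-like cells (-2.03) and Ccr6 for DSS in mutant Treg-like cells (1.36). Ccr6 changed sign for the genotypes without treatment in T (0.0888), Th17-like (-0.54) and ILC3-like cells (0.10), for the genotypes after DSS (0.47) and DSS in the wildtype (-0.53) in ILC3-like cells, and with against without Ccl20 (-0.88). Ccl20 beside Ccr6 was -1.93 there.

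With no filter on low counts more genes passed. For DSS in the mutant there were 2533 in T, 747 in Th17-like, 1199 in Treg-like and 142 in ILC3-like cells. For DSS in the wildtype there were 1323 in T, 189 in Th17-like, 479 in Treg-like, 176 in B and 57 in ILC3-like cells. The genotypes without treatment gave 243 in T, 75 in Th17-like, 29 in Treg-like, 32 in B and 23 in ILC3-like cells, the genotypes after DSS 48, 3, 10, 2 and 13 in the same order, and the difference of the DSS effect in T cells 97. Without the filter Ccl20 passed for DSS in the mutant in T (-1.60), Th17-like (-1.59) and Treg-like cells (-1.05), for DSS in the wildtype in T and Th17-like cells (0.75 in each), for the genotypes without treatment in T (1.81) and Th17-like cells (1.30), for the genotypes after DSS in Th17-like cells (-1.04), and for the difference of the DSS effect in T cells (-2.35). Ccr6 passed for DSS in the mutant in T (0.49) and Treg-like cells (0.89) and for DSS in the wildtype in T (0.53) and Treg-like cells (0.91).

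Without thinning, 1411 genes were called by Ccl20 and 2892 by Ccr6, and Ccr6 passed beside Ccl20 (0.46). With only the libraries of the groups compared, DSS in T cells gave 38 genes in the wildtype and 371 in the mutant. Without T cells carrying UMIs of other lineages, DSS in the wildtype gave 63 genes, Ccl20 beside Ccr6 changed sign to 0.23, and the difference of the DSS effect for Ccr6 in T cells to 0.12. Without the 10% of barcodes highest in heat-shock genes, DSS in mutant T cells gave 481 genes. In 2 alternatives chosen after seeing the data, Ccl20 beside Ccr6 was 0.18 without the cluster led by heat-shock genes, and Ccr6 for DSS in mutant ILC3-like cells was 0.0151 in barcodes without a Cd3 UMI.

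With each library left out in turn, the called genes for DSS in the mutant numbered 0 to 979 in T, 20 to 376 in Th17-like, 0 to 775 in Treg-like, 101 to 514 in B and 15 to 67 in ILC3-like cells. For DSS in the wildtype they numbered 0 to 93, 0 to 31, 0 to 168, 4 to 155 and 0 to 13 in the same order. For the genotypes without treatment they numbered 0 to 12, 0 to 12, 0 to 6, 0 to 17 and 0 to 12, and after DSS 0 to 6 in Treg-like, 0 to 1 in B and 0 to 5 in ILC3-like cells.

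Over the same left-out libraries, Ccl20 for DSS in the mutant ran from -3.40 to -0.55 in T, from -2.62 to -0.24 in Th17-like and from -2.44 to -0.14 in Treg-like cells, for DSS in the wildtype from -0.19 to 1.29 in T, from 0.45 to 1.07 in Th17-like and from -1.32 to 0.32 in Treg-like cells, for the genotypes without treatment from 0.76 to 2.42 in T, from -0.0786 to 1.84 in Th17-like and from -0.0913 to 1.43 in Treg-like cells, and after DSS from -2.31 to 0.38 in T, from -2.06 to -0.69 in Th17-like and from -1.29 to 1.08 in Treg-like cells. Ccr6 for DSS in the mutant ran from -0.40 to 1.02 in T, -3.12 to -0.25 in Th17-like, 0.31 to 1.23 in Treg-like, -1.52 to 0.32 in B and -0.73 to 0.35 in ILC3-like cells. For DSS in the wildtype it ran from 0.25 to 0.83 in T, -1.01 to 0.0257 in Th17-like, 0.80 to 0.95 in Treg-like, -0.0891 to 0.88 in B and -0.33 to 0.40 in ILC3-like cells. For the genotypes without treatment it ran from -0.30 to 0.28 in T, 0.0312 to 0.46 in Th17-like, -0.17 to 0.0626 in Treg-like, -0.29 to 0.17 in B and -0.41 to 0.32 in ILC3-like cells, and after DSS from -0.95 to 0.47 in T, -2.63 to 0.52 in Th17-like, -0.60 to 0.31 in Treg-like, -2.05 to -0.0475 in B and -0.83 to 0.25 in ILC3-like cells. The difference of the DSS effect in T cells ran from -0.91 to 0.50 for Ccr6 and from -4.14 to -1.28 for Ccl20, Ccl20 beside Ccr6 from -1.19 to 0.22, and Ccr6 beside Ccl20 from -0.26 to 0.30.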
